A study of Mus musculus with 2 samples.

Results

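The genes described here are the 10 that encode the cyclins, kinases and pocket proteins of the G1 phase, and they were chosen by symbol from the 23284 genes listed in both libraries. They are the D cyclins Ccnd1, Ccnd2 and Ccnd3, the E cyclins Ccne1 and Ccne2, the kinases Cdk4 and Cdk6, and the pocket proteins Rb1, Rbl1 and Rbl2. All 10 had a value above 0 in both libraries. The RNA came from leukemic stem cells (LSCs) of mice with a model of chronic myeloid leukemia (CML). The LSCs were sorted as GFP+ CD45.2+ cells that lacked lineage markers and carried Sca-1 and c-Kit (LSK), on day 11 of the first transplantation. The data hold 1 library of WT LSCs and 1 library of STAP-1 KO LSCs, both on a C57BL/6J background. In both groups the donor cells carried human p210 BCR-ABL and GFP from a retroviral vector and had been transplanted into lethally irradiated Ly5.1 recipients with normal carrier marrow. The mice of the study were 8 to 14 weeks old. STAP-1 was deleted in the germline of the donors, so that only the donor cells and not the recipients lacked it.

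Cells decide in G1 whether to divide. D cyclins are made in response to growth signals and activate CDK4 and CDK6, which begin to phosphorylate the retinoblastoma protein pRB (Rb1) and its relatives p107 (Rbl1) and p130 (Rbl2). Unphosphorylated pocket proteins hold E2F transcription factors in check. Once they are phosphorylated, E2F factors switch on the genes of DNA synthesis together with the E cyclins, which activate CDK2 and complete the step. p130 is the pocket protein of resting cells, whereas p107 is itself made from an E2F target gene in dividing cells. In blood-forming cells CDK6, cyclin D2 and cyclin D3 are the best known drivers of this step.

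The values are FPKM, read counts divided by transcript length and by library size, so that levels can be compared between genes. With 1 library per genotype the spread between replicates is unknown, and no test was made. From the steps between low values, the effective depths were estimated as 7490000 reads for the WT library and 10480000 reads for the STAP-1 KO library. Intervals below are 95% intervals from reads estimated at these depths. They cover counting error only and not the variation between mice or preparations. Stap1 itself had 62.0 FPKM in WT LSCs and 0.309 FPKM in STAP-1 KO LSCs. Of the antigens used for the sort, the c-Kit gene Kit had 468 and 30.1 FPKM and the Sca-1 gene Ly6a had 285 and 106 FPKM, so that the transcript of a defining marker was much lower in STAP-1 KO LSCs. In sorted bulk cells, fewer cells of a type and less RNA per cell cannot be told apart.

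Between the libraries the members did not move as a block. At a cut-off of 2-fold with at least 0.1 FPKM in both libraries, Cdk4 alone was higher in STAP-1 KO LSCs, and Rb1 and Rbl2 were lower. Across the 12507 genes that could be compared, 12.3% were at least 2-fold higher and 22.9% at least 2-fold lower, so that 1 and 2 of 10 members are near the shares among all genes. At 1.5-fold, 5 of 10 members were higher (Ccne1, Ccne2, Cdk4, Cdk6 and Rbl1) against 25.6% of all genes, and 2 were lower against 32.8%. The log2 ratio, STAP-1 KO over WT with 0.1 FPKM added to each, ran from -2.33 for Rb1 to 1.20 for Cdk4 with a median of 0.40. The log2 ratio of 6 of 10 members was above 0. Among the 10974 genes whose mean was 1 FPKM or more, the median was -0.04 and 48.3% were above 0.

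**Figure D1:**
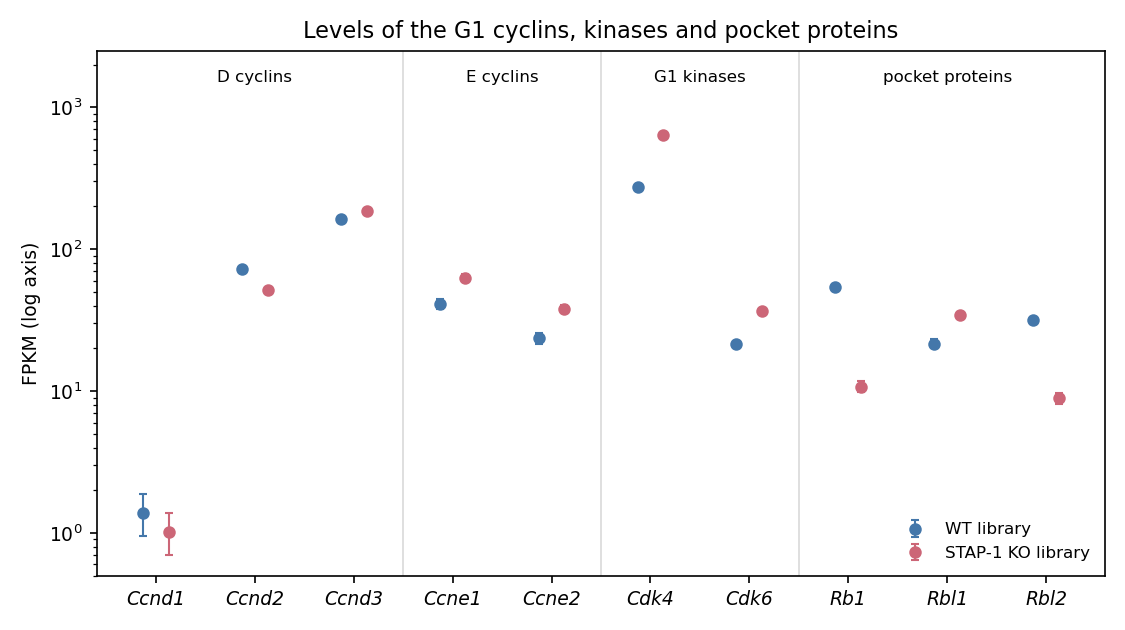
FPKM of each member on a log axis in WT LSCs (blue) and the STAP-1 KO library (red), 1 library each, with bars for the 95% counting interval where it is wider than the point. Rb1 and Rbl2 lie far lower and Cdk4 lies higher in STAP-1 KO LSCs, while Ccnd1 is near 1 FPKM in both.

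In order of level, Cdk4 stood first in both libraries with 276 FPKM in WT LSCs and 636 FPKM in STAP-1 KO LSCs, and Ccnd3 second with 162 and 186 FPKM. Ccnd1 stood last in both. Rb1 was the fourth of the 10 in WT LSCs and the eighth in STAP-1 KO LSCs. In the WT library Ccne2, Rbl1 and Cdk6 followed each other with 23.6, 21.5 and 21.3 FPKM, and their counting intervals overlapped. The same genes were also neighbours in STAP-1 KO LSCs, with 38.1 FPKM for Ccne2, 36.6 FPKM for Cdk6 and 34.2 FPKM for Rbl1. There the interval of Cdk6, from 35.5 to 37.7 FPKM, overlapped those of both others.

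The D cyclins are the regulatory partners of CDK4 and CDK6. None of them passed the cut-off. Ccnd3, which encodes cyclin D3, had 162 FPKM in WT LSCs and 186 FPKM in STAP-1 KO LSCs (log2 ratio 0.20, counting interval 0.12 to 0.27). Ccnd2, which encodes cyclin D2, had 72.5 FPKM in WT LSCs and 51.6 FPKM in STAP-1 KO LSCs (log2 ratio -0.49, interval -0.56 to -0.42). The pair differed in sign, but neither sign was kept when ratios were set against genes of like transcript length, where Ccnd3 had -0.09 and Ccnd2 0.48. Ccnd1, which encodes cyclin D1, had 1.38 FPKM in WT LSCs and 1.01 FPKM in STAP-1 KO LSCs. These values rest on about 36 and 37 reads, and the interval of its log2 ratio, from -1.15 to 0.26, includes 0, so a difference was not detectable at this depth. The D cyclin message was therefore nearly all Ccnd3 and Ccnd2. Ccnd3 made up 68.7% of the summed D cyclin FPKM in WT LSCs and 77.9% in STAP-1 KO LSCs, and Ccnd2 made up 30.7% and 21.6%. The ratio of Ccnd3 to Ccnd2 within a library was 2.24 in WT LSCs and 3.60 in STAP-1 KO LSCs. Both shifts turned when the STAP-1 KO values were corrected by genes of like length, with a ratio of 1.51 and shares of 59.9% for Ccnd3 and 39.6% for Ccnd2.

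Ccnd2 was also among the genes for which the study listed real-time PCR primers, shown here because they locate the part of the transcript that such an assay reads. In the reverse primer, capitals mark the bases that lie in exon 2, and the remaining bases lie in exon 1.
Ccnd2 forward: gcgtgcagaaggacatcca
Ccnd2 reverse: CACTTTTGTTCCTCACAGACctctag
By exact match to transcripts of GENCODE M21 (GRCm38), the forward primer lies in exon 1 on the minus strand at chr6:127150622-127150640. The reverse primer spans the junction of exons 1 and 2, and the product has 79 bases. Of the 8 annotated Ccnd2 transcripts 4 hold both primers, and no transcript of the other members holds either.

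The E cyclins activate CDK2 at the end of G1, and both had higher values in STAP-1 KO LSCs that stayed below the 2-fold cut-off. Ccne1, which encodes cyclin E1, had 41.0 FPKM in WT LSCs and 62.7 FPKM in STAP-1 KO LSCs, 1.53-fold more (log2 ratio 0.61, interval 0.47 to 0.76). Ccne2, which encodes cyclin E2, had 23.6 FPKM in WT LSCs and 38.1 FPKM in STAP-1 KO LSCs, 1.62-fold more (log2 ratio 0.69, interval 0.54 to 0.85). Ccne1 made up 63.4% of their sum in WT LSCs and 62.2% in STAP-1 KO LSCs (56.7% corrected for length). Their summed FPKM was 64.6 in WT LSCs and 101 in STAP-1 KO LSCs. The D cyclins together had 3.66 times the FPKM of the E cyclins in WT LSCs and 2.36 times in STAP-1 KO LSCs. Corrected for length the second ratio was 2.96. Ccne1 had a log2 difference of 0.26 against genes of like length and Ccne2 one of 0.66.

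Cdk4 and Cdk6 encode the kinases that D cyclins activate. Cdk4, at chr10:127063534-127067920 (GRCm38, plus strand), rose from 276 FPKM in WT LSCs to 636 FPKM in STAP-1 KO LSCs, a ratio of 2.30 (log2 ratio 1.20, interval 1.15 to 1.26). It ranked 307th among all genes in WT LSCs and 91st in STAP-1 KO LSCs, and 7.29% of the 10974 genes had a larger log2 ratio. Cdk6 had 21.3 FPKM in WT LSCs and 36.6 FPKM in STAP-1 KO LSCs, a ratio of 1.72 (log2 ratio 0.78, interval 0.70 to 0.86), which is below the cut-off. Both calls turned against genes of like length, where Cdk4 had 0.85 and Cdk6 1.78. Cdk4 was the more abundant kinase message in both, with 12.98 times the FPKM of Cdk6 in WT LSCs and 17.4 times in STAP-1 KO LSCs, but 6.76 times there after the correction for length.

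Of the members, 6 have a promoter window in the RefSeq-based table (GRCm38.p6, 250 bases before to 50 after an annotated start), namely Ccnd3, Ccne1, Cdk4, Cdk6, Rbl1 and Rbl2. Ccnd1, Ccnd2, Ccne2 and Rb1 have none there. The windows were searched on both strands for CACGTG (the E-box bound by MYC), TTCNNNGAA (STAT) and the E2F letters TTTCCCGC and TTTGGCGC. The E2F letters TTTCGCGC and TTTGCCGC were added afterwards. The window of Cdk4 is shown whole because Cdk4 was the one member past the 2-fold cut-off upwards before any correction for length and because it holds 4 copies of CACGTG, in capitals. It lies on the plus strand at chr10:127063285-127063584.
Cdk4 promoter: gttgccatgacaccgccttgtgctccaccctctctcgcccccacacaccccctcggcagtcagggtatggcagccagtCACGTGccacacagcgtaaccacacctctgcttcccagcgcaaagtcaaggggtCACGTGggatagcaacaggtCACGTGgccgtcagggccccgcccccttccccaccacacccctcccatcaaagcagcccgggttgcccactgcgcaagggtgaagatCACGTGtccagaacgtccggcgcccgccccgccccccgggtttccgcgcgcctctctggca
Of all 32817 windows in the table, 7.15% hold CACGTG at least once and 8 hold it at least 4 times, a number chosen after the Cdk4 window had been read. The window of Cdk6 holds it once, within the stretch printed below at chr5:3343662-3343691. That of Rbl1 holds TTTCGCGC once, within the stretch printed below at chr2:157204534-157204563 on the minus strand. TTTCGCGC was among the letters added afterwards. It occurs in 0.323% of windows, and any of the 4 E2F letters searched occurs in 2.26%.
Cdk6 promoter, CACGTG in capitals: ttctgcggcccCACGTGggtgaacccccgg
Rbl1 promoter, TTTCGCGC in capitals: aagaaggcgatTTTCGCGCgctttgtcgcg
No other match was found in the windows of these 6 members. A match describes the letters and does not show that a factor was bound there in these cells.

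The pocket proteins differed most among themselves. Rb1, which encodes pRB and lies at chr14:73183673-73325822 (GRCm38, minus strand), fell from 54.2 FPKM in WT LSCs to 10.7 FPKM in STAP-1 KO LSCs, or to 19.7% of the WT value (log2 ratio -2.33, interval -2.49 to -2.20). Rbl2, which encodes p130 and lies at chr8:91070057-91123844 (plus strand), fell from 31.6 FPKM in WT LSCs to 8.86 FPKM in STAP-1 KO LSCs, or to 28.1% (log2 ratio -1.82, interval -2.00 to -1.67). Rbl1, which encodes p107 and lies at chr2:157145893-157204534 (minus strand), had 21.5 FPKM in WT LSCs and 34.2 FPKM in STAP-1 KO LSCs, 1.59-fold more (log2 ratio 0.67, interval 0.55 to 0.80). Only 6.03% of the 10974 genes had a lower log2 ratio than Rb1 and 9.90% a lower one than Rbl2. Rb1 and Rbl2 thus lay well below most genes, and Rbl1 lay above 77.9% of them.

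With these opposite ratios the order of the pocket proteins changed, with Rbl1 last in WT LSCs and first in STAP-1 KO LSCs. In the WT library Rb1 was the most abundant with 50.5% of their summed FPKM, followed by Rbl2 with 29.4% and Rbl1 with 20.02%. In the STAP-1 KO library Rbl1 came first with 63.6%, followed by Rb1 with 19.9% and Rbl2 with 16.5%. Rb1 had 2.52 times the FPKM of Rbl1 in WT LSCs, and Rbl1 had 3.20 times that of Rb1 in STAP-1 KO LSCs. Such ratios within a library do not depend on how the libraries were scaled to each other. They also set transcripts of similar length side by side, since the longest coding transcripts of Rb1, Rbl1 and Rbl2 have 4656, 4862 and 4925 bases in GENCODE M21.

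**Figure D2:**
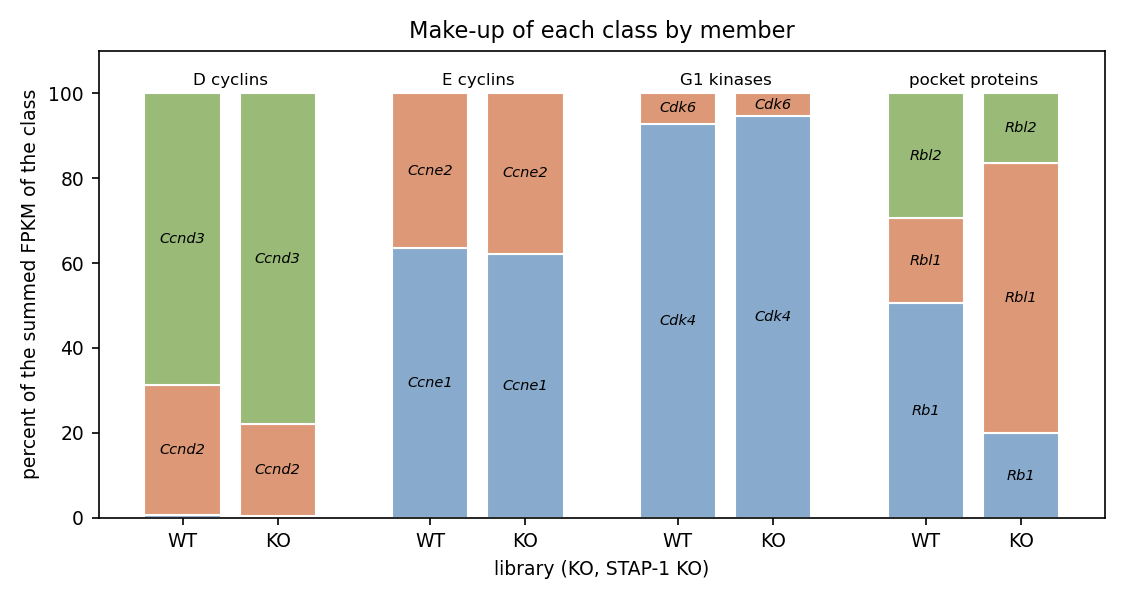
Percent of the summed FPKM of each class that each member takes, in WT LSCs and the STAP-1 KO library. Rbl1 goes from 20.02% to 63.6% of the pocket protein message, while the make-up of the E cyclins and of the kinases differs by less than 2 percentage points in these uncorrected values. Ccnd1, under 1% of the D cyclins, is the thin line at the base of their bars.

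Summed over members, the classes also went separate ways. The D cyclins had 236 FPKM in WT LSCs and 238 FPKM in STAP-1 KO LSCs (log2 ratio 0.01, interval -0.04 to 0.07). The E cyclins had a log2 ratio of 0.64 (0.535 to 0.75) and the kinases one of 1.18 (1.13 to 1.23), with 298 and 673 FPKM. The pocket proteins had 107 and 53.8 FPKM, a log2 ratio of -0.995 (-1.07 to -0.92), a sum in which the lower Rb1 and Rbl2 were in part offset by Rbl1. Relative to each other, kinases had 2.77 times the FPKM of pocket proteins in WT LSCs and 12.5 times in STAP-1 KO LSCs (6.84 times corrected for length). D cyclins had 0.793 times the FPKM of the kinases in WT LSCs and 0.354 times in STAP-1 KO LSCs (0.448 times corrected for length). When each member was first set against genes of like length, the pocket protein sum had a log2 ratio of -0.36.

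The length of a transcript went along with its ratio in these libraries. Across 10864 genes, Spearman's rank correlation between log2 ratio and length was -0.40, given as a description across genes of 1 pair of libraries. The members range from 2000 bases (Ccne1) to 11525 bases (Cdk6), so each was compared with the 543 or 544 genes in its own bin of length out of 20 bins. Among genes of 7644 bases or more the median log2 ratio was -1.005, and only 3.68% of them had a higher ratio than Cdk6. In the bin of Rbl1 and Rbl2, from 4769 to 5357 bases, the median was -0.67, with 7.55% of genes above Rbl1 and 17.3% below Rbl2. In the bin of Rb1 the median was -0.47, and 8.29% of genes had a lower ratio. Cdk4 and Ccne1 share a bin with a median of 0.36, in which 11.2% of genes had a higher ratio than Cdk4 and 36.3% a higher one than Ccne1. The bin medians of Ccnd3 and Ccnd1 were 0.28 and -0.23, and the members differed from them by -0.09 and -0.18.

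**Figure D3:**
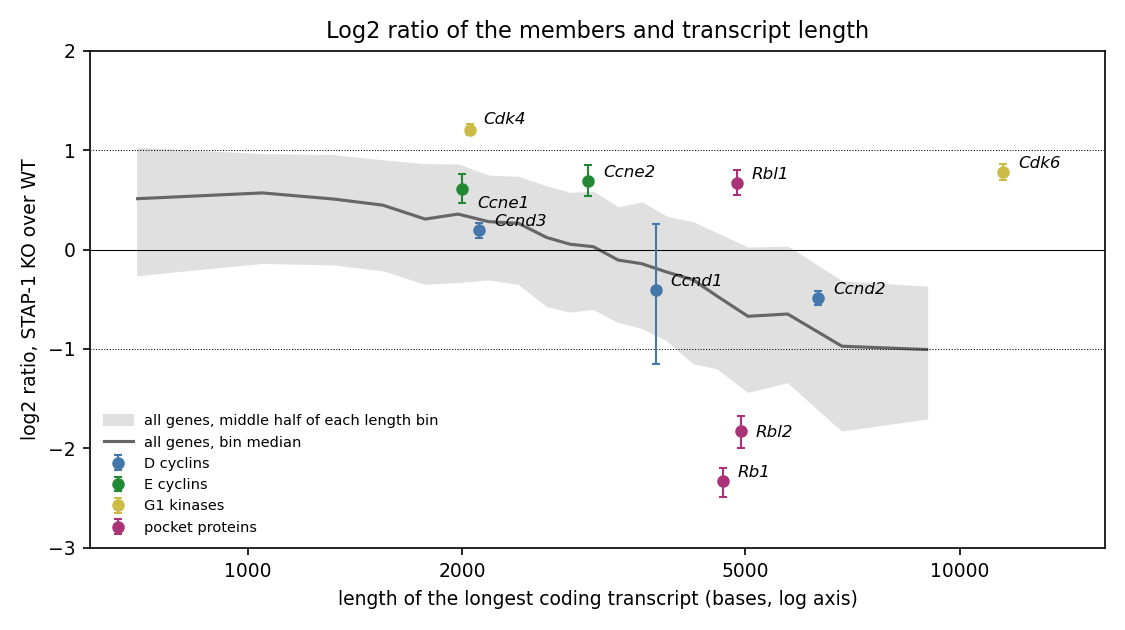
Log2 ratio of STAP-1 KO over WT against the length of the longest coding transcript (log axis), with members coloured by class, bars for the 95% counting interval, the median of all genes in 20 length bins as a line and the middle 50% of genes as a grey band. Dotted lines mark the 2-fold cut-off. Cdk6 and Rbl1 lie far above genes of their length, Rb1 and Rbl2 below the band, and Ccnd3 and Ccnd1 near the line.

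Set against genes of like length, Cdk6 had a log2 difference of 1.78, Rbl1 one of 1.34 and Cdk4 one of 0.85, so that Cdk6 and Rbl1 and no longer Cdk4 were past a 2-fold difference. Rb1 had -1.86 and Rbl2 -1.15, both still past it. The libraries were made with a kit that does not mark strand, and exons of several members overlap those of genes on the opposite strand. Cdk4 shares 641 bases with Tspan31, which had 132 FPKM in WT LSCs and 146 FPKM in STAP-1 KO LSCs. Rb1 shares 488 bases with Rcbtb2 (16.6 and 18.8 FPKM) and 408 bases with Lpar6 (17.0 and 21.1 FPKM), neither of which was lower in STAP-1 KO LSCs. Rbl2 shares 693 bases with Aktip, which had 12.9 and 15.8 FPKM, and Ccne2 shares 609 bases with Ints8, which had 35.2 and 45.2 FPKM. The longest shared stretch was that of the low Ccnd1, 1100 bases with LTO1, for which no value was found under that symbol. Reads from the shared stretches cannot be told apart.

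Of the inhibitors that act on these kinases, the INK4 proteins block CDK4 and CDK6 and the CIP/KIP proteins bind cyclin-CDK complexes more widely. In the INK4 list 2 of 4 genes fell and none rose past the cut-off, against 22.9% and 12.3% of all genes. Both remained past 2-fold against genes of like length, but the list median of -1.89 was -0.18 over genes of at least 5 FPKM. Cdkn2b (p15) fell from 55.2 FPKM in WT LSCs to 4.43 FPKM in STAP-1 KO LSCs. Cdkn2a, which encodes p16 and ARF, had 4.71 and 0.265 FPKM, and the second value rests on about 2 reads (log2 ratio -3.72, interval -7.19 to -2.05). Cdkn2c (p18) had 5.35 and 6.81 FPKM and Cdkn2d (p19) had 55.5 and 48.9 FPKM. Among the CIP/KIP genes Cdkn1a (p21) fell from 217 to 66.4 FPKM, and Cdkn1b (p27) from 1.58 to 0.739 FPKM on about 51 and 34 reads. Against genes of like length Cdkn1a had a log2 difference of -1.99, while that of Cdkn1b was -0.53 and no longer past 2-fold. Cdkn1c (p57) had 0.944 and 1.30 FPKM. Cdkn2b and Cdkn1a therefore had lower values in the same library in which Rb1 and Rbl2 did, and Cdk4 a higher one.

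Downstream of the pocket proteins, 7 of 10 E2F and DP genes had a log2 ratio above 0, with a median of 0.37, where 48.3% of all genes were above 0. Only E2f2, a transcriptional activator, passed the cut-off, where 22.9% of all genes were lower, and it fell from 7.83 FPKM in WT LSCs to 1.52 FPKM in STAP-1 KO LSCs. Of the other activators, E2f1 had 18.7 and 29.1 FPKM and E2f3 had 2.89 and 4.12 FPKM, past 2-fold only against genes of like length (1.17). E2f4, the main partner of p107 and p130, was the most abundant with 112 and 99.6 FPKM, and E2f5 had 5.28 and 9.98 FPKM. E2f6 had 26.3 and 39.3 FPKM, and the repressors E2f7 and E2f8 had 2.68 and 3.21 FPKM and 15.01 and 17.5 FPKM. The dimerization partner Tfdp1 had 47.4 and 88.1 FPKM.

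**Figure D4:**
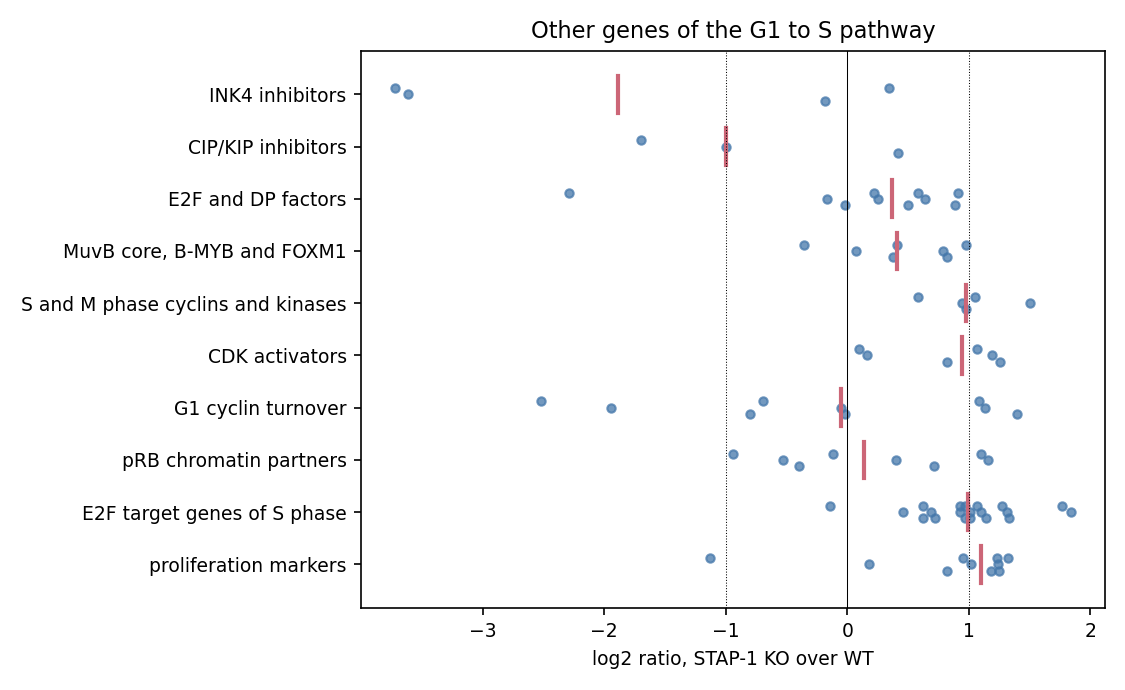
Log2 ratio of STAP-1 KO over WT for each gene with a mean of at least 1 FPKM in 10 lists of the pathway (blue points), with the list median in red and dotted lines at 2-fold. The lists of S phase targets, CDK activators and S and M phase kinases lie mostly to the right of 0, and the medians of the 4 INK4 and 3 CIP/KIP genes lie left of the lower 2-fold line and on it, the latter at -0.53 against genes of like length.

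The 20 E2F target genes of S phase had a median log2 ratio of 0.99, against -0.04 for all genes, with 10 past the cut-off upwards and none downwards, where 12.3% and 22.9% of all genes were. Against genes of like length the median was 0.92 and 9 were past 2-fold upwards. Gins2 and Gins1, subunits of the replicative helicase, had the largest ratios, with 23.6 and 84.9 FPKM and 18.4 and 63.0 FPKM. Their partner in the helicase, Cdc45, rose from 31.1 to 78.3 FPKM and the thymidine kinase Tk1 from 28.5 to 68.7 FPKM, a log2 difference of 0.82 against genes of like length. Ccne1, Ccne2 and Rbl1, which are known E2F targets too, had log2 ratios of 0.61, 0.69 and 0.67, below the target median of 0.99. For Rbl1 this order turned against genes of like length, where it had 1.34 and the targets a median of 0.92. Among the cyclins and kinases of S and M phase, Cdk1 rose from 36.5 to 103 FPKM and Ccnb1 from 57.8 to 120 FPKM, and 2 of 6 genes passed the cut-off, of which Cdk1 alone was past 2-fold against genes of like length. Cdk2, the partner of the E cyclins, had 43.7 and 65.4 FPKM, and Ccna2, the cyclin of S phase, had 119 and 229 FPKM. Ccna1 was listed at 0 in both libraries.

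CDK4, CDK6 and CDK2 need an activating phosphate, which the complex of CDK7, cyclin H and MAT1 adds. Of the 6 CDK activators 3 rose and none fell past the cut-off, with a list median of 0.94, where 12.3% of all genes rose. Against genes of like length the median was 0.59, and 0.34 with GC content also corrected, and Mnat1 alone was past 2-fold. Mnat1 (MAT1) had 7.66 FPKM in WT LSCs and 18.5 FPKM in STAP-1 KO LSCs, Ccnh 42.2 and 88.6 FPKM and the phosphatase Cdc25c 10.7 and 24.5 FPKM. Of the 9 genes that turn over G1 cyclins, 3 were higher and 2 lower, the latter near the 22.9% of all genes that were lower. Fbxw7, the ubiquitin ligase receptor for cyclin E, fell from 21.7 to 3.69 FPKM, and Ambra1, the receptor for D cyclins, from 10.6 to 2.68 FPKM. Cks1b and Skp1a, which serve the SKP2 ligase that degrades p27, rose from 224 to 591 FPKM and from 204 to 447 FPKM. Fbxw7 and Ambra1 remained past 2-fold against genes of like length, with -2.05 and -1.27, as did Skp2 itself (8.82 and 18.8 FPKM) with 1.73, whereas Cks1b and Skp1a had 0.89 and 0.82 and did not. Fbxo4 (7.91 and 4.51 FPKM) was past 2-fold downwards only after that correction, with -1.24.

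The MuvB complex joins p107 or p130 in resting cells and B-MYB or FOXM1 in dividing cells. None of its 7 listed genes passed the cut-off, which 12.3% of all genes did upwards and 22.9% downwards. After the length correction 2 did upwards, and 6 had an uncorrected log2 ratio above 0, against 48.3% of all genes. Mybl2 (B-MYB) had 9.77 FPKM in WT LSCs and 19.4 FPKM in STAP-1 KO LSCs, Lin9 7.10 and 12.6 FPKM and Rbbp4 90.1 and 156 FPKM. Foxm1 alone had an uncorrected log2 ratio below 0 (-0.36), with 10.9 and 8.46 FPKM. Its difference from genes of like length was 0.11. Of 8 chromatin partners of pRB, 2 passed the cut-off upwards and none downwards, where the shares of all genes were 12.3% and 22.9%, and 4 had a log2 ratio below 0, none of them against genes of like length. The former were the deacetylase Hdac2 (117 and 261 FPKM) and the histone-binding Rbbp7 (139 and 297 FPKM), the latter with 0.82 against genes of like length. The demethylase Kdm5a had 11.8 FPKM in WT LSCs and 6.09 FPKM in STAP-1 KO LSCs (log2 ratio -0.94, interval -1.09 to -0.81), but 0.07 against genes of like length. The remodeler Smarca4 had 30.3 and 20.9 FPKM (log2 ratio -0.53), but 0.44 against genes of like length.

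Markers of cell types, both of other cells and of LSK and stem cells, differed between the libraries beside all of these values. The counts are of genes past the cut-off, where 12.3% of all genes were higher and 22.9% lower. The 10 mast cell and basophil markers summed to 51462 FPKM in WT LSCs and to 5276 FPKM in STAP-1 KO LSCs, and 9 of them were lower past the cut-off, with Cpa3 at 17984 and 1774 FPKM. The 5 primary granule markers of early granulocytes were all higher, and summed to 564 and 4623 FPKM, with Mpo at 248 and 1973 FPKM. Of 6 late neutrophil markers 5 were lower (sums of 396 and 157 FPKM), and of 6 monocyte and macrophage markers 2 were higher and 3 lower (149 and 135 FPKM). Of 5 erythroid markers found 2 were lower (488 and 284 FPKM), namely Car1 with 250.2 and 88.4 FPKM and Ermap with 52.3 and 18.1 FPKM, while Klf1 had 103 and 108 FPKM. Of 5 megakaryocyte markers 3 were lower (208.5 and 116 FPKM), of which Vwf was not past 2-fold against genes of like length (-0.14). Of 5 B cell markers 1 was higher, Cd79b with 3.10 and 17.8 FPKM (sums of 3.10 and 17.9 FPKM), and Pax5 and Ebf1 were listed at 0 in both libraries. Of 5 T cell markers 2 were higher and 1 was lower (3.89 and 7.41 FPKM), none exceeded 5.04 FPKM, and the intervals of Cd4 and Cd8a, on at most 14 reads, included 0. Cd3g, with 1.80 and 5.04 FPKM, was below 2-fold against genes of like length (0.87). Of 10 LSK and stem cell markers 4 were lower and 1 was higher (1099 and 392 FPKM), with Cd34 at 281 and 194 FPKM. Of the 4, Kit and Ly6a were past 2-fold against genes of like length, Mecom was not (-0.68), and Hlf rests on about 13 and 8 reads with an interval of -2.66 to 0.20. The higher one was Slamf1, with 3.39 and 8.67 FPKM, and it was still past 2-fold against genes of like length (1.21). The part of differences in cell make-up in the ratios of Rb1, Rbl2, Cdk4 and the other members was not tested.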

How the data were processed

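The authors deposited 1 file of FPKM values per library, with 23284 gene symbols each. Per the methods, RNA of sorted cells was amplified with a SMART-Seq v4 kit and sequenced as single reads, and reads were mapped to mm10. The submitters' processing notes name TopHat2 2.0.13, Bowtie2 2.2.3, SAMtools 0.1.19 and Cufflinks 2.2.1, of which Cuffnorm made the FPKM. The gene annotation, the scaling and the read totals are not given in the sources used here. The labels name a miRNeasy kit for the extraction and the methods an RNeasy kit.

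From these FPKM values, ratios and sums were computed in Python 3.11.15 (numpy 2.4.6, scipy 1.17.1, pandas 2.3.3). A gene was counted past the cut-off at a ratio of 2, without a pseudocount, if neither library was below 0.1 FPKM. Log2 ratios used a pseudocount of 0.1 FPKM, which understates changes of low genes, and list medians left out genes whose mean was below 1 FPKM. Lengths came from GENCODE M21 (GRCm38), to which 20911 symbols matched as written and 1896 through an older symbol. Reads were estimated from low FPKM of genes with 1 transcript, where 44.8% of 348 values in WT and 51.7% of 354 in STAP-1 KO were whole reads to within 0.01 (2.00% by chance). Estimated reads use the longest coding transcript and are approximate where a gene has several. Intervals are exact Poisson for levels, exact binomial for ratios and normal approximations for sums. The steps were tested on simulated data.

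The members and lists were chosen with earlier results of these data known. Named genes are all members, Stap1, the kinase inhibitors and, of each other list, up to 4 that differed most on the log2 scale at a pseudocount of 1 FPKM, with Cdk2, Ccna2, Mki67 and the E2F genes. Of each marker list the 2 with the highest mean could be named. Ly6a, Ccna1, Smarca4, Skp2, Fbxo4, Foxm1, Ermap, Vwf, Cd4, Cd8a, Mecom, Hlf, Slamf1, the overlapping genes and the B cell markers at 0 were named after their values were seen. Alternatives changed the floor, cut-off, pseudocount, scaling, genes included and a correction for transcript length in 20 bins. A correction for length and then GC content was added after seeing the data. Protein sequences were not used here.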

Additional observations from a re-analysis of the deposited data

How the results depend on the processing

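Rb1 and Rbl2 stayed past the 2-fold cut-off downwards under every alternative run. The number of members at least 2-fold higher was 1 under the other floors and scalings, but 5 at a 1.5-fold cut-off (Ccne1, Ccne2, Cdk4, Cdk6 and Rbl1), 2 after the length correction (Cdk6 and Rbl1) and 3 after the correction for length and GC content (Cdk4, Cdk6 and Rbl1). After the length correction the summed classes had log2 ratios of 0.11 (D cyclins), 0.42 (E cyclins), 0.94 (kinases) and -0.36 (pocket proteins), and after the correction for length and GC content 0.30, 0.37, 1.09 and -0.58. Scaling to equal sums without the marker genes gave 0.08 for the D cyclins and 1.24 for the kinases. The cause of these shifts was not tested. The 3 scalings multiplied the STAP-1 KO values by 1.03 to 1.04. Of 10 members, 8 kept the sign of their log2 ratio under all 6 alternatives, Ccnd2 ran from -0.48 to 0.48 and Ccnd3 from -0.09 to 0.26. Of 80 values of list medians under the alternatives, 68 moved by less than the counting interval of a typical member. No paired analysis was possible because each group has 1 library. Among the members and the kinase inhibitors, depth limits Ccnd1, Cdkn2a and Cdkn1c most.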

Other observations

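Of the 10 proliferation markers, 9 had a log2 ratio above 0 (48.3% of all genes) and 6 were past the cut-off upwards (12.3% of all genes), or 3 against genes of like length. Among the 6 were Aurka (49.4 FPKM in WT LSCs and 124 FPKM in STAP-1 KO LSCs) and Birc5 (118 and 276 FPKM). Mki67, which encodes the Ki67 antigen used to score cycling cells, was the single marker that fell, from 17.4 to 7.89 FPKM. Its longest coding transcript has 10061 bases, and against genes of like length its log2 difference was -0.13 in place of -1.13, while that of Aurka was 0.97 in place of 1.32. By Ki67 staining of LSCs the paper found no significant difference in cell cycle status by genotype. BrdU labelling of GFP+ Lin- c-Kit+ cells gave none in the paper either.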
